A study of Mus musculus with 4 samples.

Results

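A set of 40 genes of the integrated stress response and of the unfolded protein response was followed in mouse acute myeloid leukemia cells. The genes were taken by exact gene symbol from a table of 24589 entries, and all 40 were listed there and passed the filter on low values. The amino acid arm holds 20 of them, namely ATF4 with its partner factors and its stress, enzyme and transporter targets. The other 20 form the endoplasmic reticulum arm, made of sensors, folding genes and degradation genes, of which 13 are folding genes (chaperones, disulfide isomerases and lectin chaperones). RNA-seq was measured in 2 libraries labelled KO and 2 labelled WT. The KO cells grew out of hematopoietic stem cells of Tet2-/- mouse bone marrow, in which exons 8 to 10 of Tet2 are missing, and the WT cells out of such stem cells of wild-type mice. Cells of both groups carry the oncogenes NRAS and AE9a, a shortened form of the AML1-ETO fusion protein. Both grew in RPMI medium, fed with the cytokines SCF (50 ng/ml), IL-6 (10 ng/ml) and IL-3 (10 ng/ml) and under selection by puromycin (2 µg/ml) and G418 (1 mg/ml). Strain, age, the number of clones and whether the 2 libraries of a group came from separate cultures were not given, so the spread that the p-values rest on may be a technical one.

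ATF4 is a transcription factor whose mRNA is translated better when the initiation factor eIF2 is phosphorylated by a stress kinase, among them GCN2, which senses uncharged tRNA, and PERK, which senses unfolded protein in the endoplasmic reticulum. It switches on amino acid synthesis, amino acid uptake and tRNA charging. The endoplasmic reticulum has another pair of sensors, IRE1 and ATF6, which raise chaperones and degradation factors through XBP1 and through ATF6 itself. A cell short of amino acids can therefore raise the ATF4 program with no demand on folding, while unfolded protein engages both.

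Levels are TPM (the deposited transcript abundances, a length-corrected share of each library's RNA). Changes are KO minus WT on the log2(TPM + 1) scale with a moderated standard error (SE). A gene is said to have risen or fallen when the adjusted p of limma's moderated test, run on all 11837 genes that reached 1 TPM in at least 2 libraries, was under 0.05. The TPM keep no read depth, so no counting interval can be given. The gene-level value of Tet2 does not check the labels, since reads from the exons outside the deletion count toward it. Tet2 was listed at 53.5 and 52.8 TPM in KO and 35.1 and 39.95 TPM in WT.

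In KO cells the amino acid arm was higher nearly throughout, while most of the folding genes were lower. The amino acid arm had 18 genes that rose, 0 that fell and 2 that were not called, and its median change was 0.45. No change in this arm was below 0, so at an unadjusted p under 0.05 also 0 genes fell by limma. Of the 20 endoplasmic reticulum genes 5 rose, 6 fell and 9 were not called, and the median was -0.05. All 6 that fell were among the 13 folding genes, of which 1 rose, and the folding median was -0.10. Among all genes tested 18.9% rose and 11.6% fell, and their median change was 0.04. The libraries of each group stood apart, KO above WT, at 19 of 20 amino acid genes, against a background of 42.2% of all genes tested. At 9 of the 13 folding genes KO stood below WT, against 26.5% of all genes tested. The 20 amino acid genes summed to 2545 and 2568 TPM in KO against 1887 and 1891 TPM in WT. The 13 folding genes summed to 5557 and 5481 TPM in KO and to 5736 and 5865 TPM in WT. In bulk RNA, fewer cells of a type and less RNA per cell cannot be told apart.

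**Figure D1:**
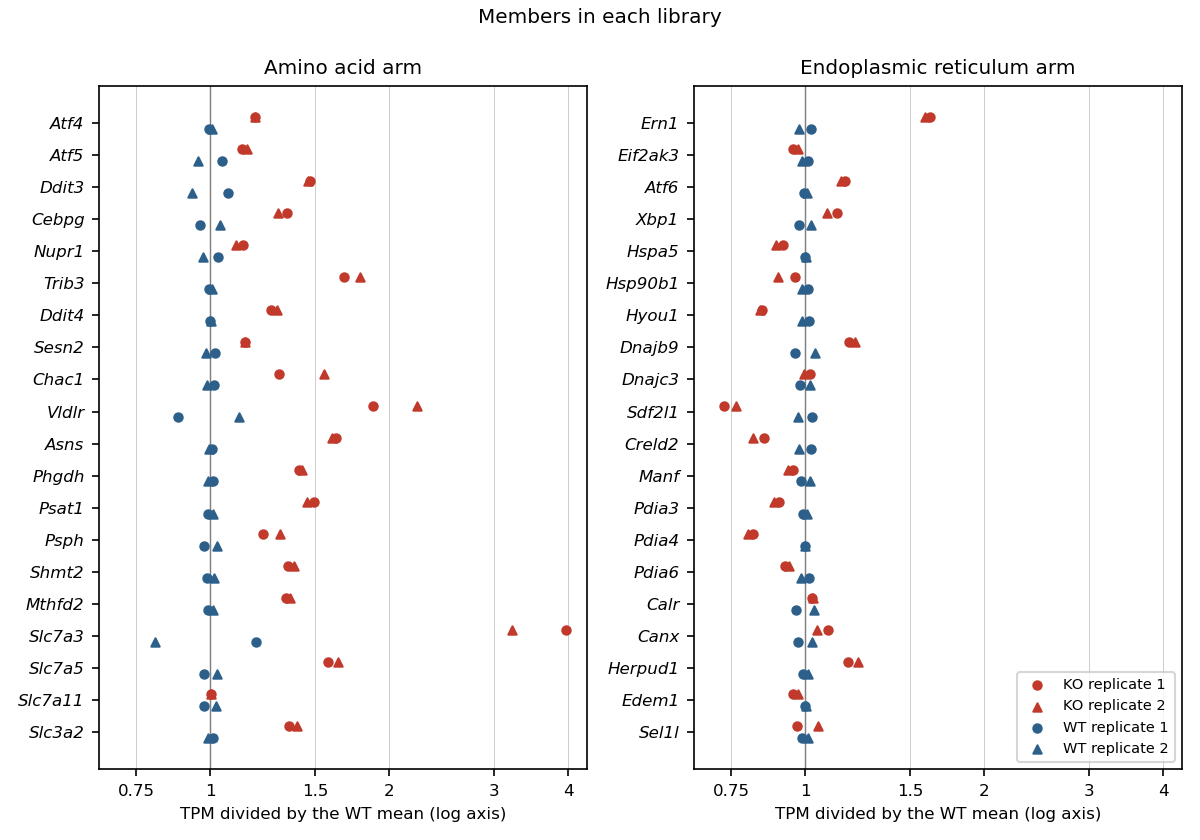
Level of each of the 40 genes in each library, as TPM divided by the mean of the WT libraries on a log axis, with KO in red and WT in blue, circles for replicate 1 and triangles for replicate 2, and a grey line at the WT mean. In the left panel the KO points lie to the right of both WT points at 19 of 20 genes, all but Slc7a11, and in the right panel they lie to the left at 11 of 20 genes and to the right at 6.

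The distance between the arms was read within each library. The mean log2(TPM + 1) of the amino acid arm minus that of the folding genes was -1.78 and -1.74 in KO and -2.30 and -2.33 in WT. The KO libraries therefore had the arms closer together, and the groups did not overlap. The median change of the amino acid arm was 0.51 above that of the whole endoplasmic reticulum arm. Asns, for asparagine synthetase, stood at 0.324 and 0.328 of the TPM of Hspa5, for the chaperone BiP, in KO, against 0.184 and 0.181 in WT.

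Library scaling moved the level of all genes together, so the counts are given under each scaling. Of all genes called, 62.0% rose under the deposited TPM, 48.2% under trimmed-mean scaling, 29.9% under scaling to the ERCC spike-ins and 45.5% after rescaling without a list of granulocyte genes. The spike-in scaling shifted the median of all genes by -0.11. The spike-ins summed to 34136 and 33853 TPM in KO and to 29764 and 33037 TPM in WT. The WT libraries thus lay further apart than the KO libraries, and this scaling also moved them against each other. Under these alternatives the amino acid arm had 17, 12 and 16 genes that rose and 0 that fell. The folding genes had 1, 0 and 1 that rose and 8, 5 and 9 that fell. Leaving out a library lowered the counts: without KO replicate 1 or without KO replicate 2, 10 amino acid genes rose and 2 folding genes fell, among 500 and 508 genes that rose and 515 and 551 that fell over the table. Without WT replicate 2, 15 amino acid genes rose.

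Marker genes of blood cell types were read as well, and many moved. Bulk RNA does not show whether these transcripts came from other cells in the cultures or from the leukemia cells themselves. All 18 genes of a maturing granulocyte list fell, and they summed to 49956 and 50438 TPM in KO against 86719 and 84433 TPM in WT. The share of the library was 5% and 5.04% in KO and 8.67% and 8.44% in WT. Of 11 macrophage markers 7 fell, 1 rose and 3 were not called. They summed to 870 and 853 TPM in KO against 2528 and 2569 TPM in WT. Among those that fell were Retnla, Arg1, Chil3 and Mgl2, with changes between -4.935 and -2.699. Named here after their values were seen, Adgre1 rose (385 and 379 TPM in KO, 330 and 328 TPM in WT), and Csf1r, C1qa and C1qb were not called. The sums therefore do not tell fewer macrophages from lower levels of single genes. Of 7 markers of leukemic progenitors 5 rose and 1 fell, against 18.9% and 11.6% of all genes tested. The 1 that fell was Spi1 (200 and 196 TPM in KO, 235 and 240 TPM in WT). Cd34 (270 and 266 TPM in KO, 189 and 199 TPM in WT) and Mpo (990 and 1037 TPM in KO, 731 and 758 TPM in WT) rose. Kit, the SCF receptor gene, rose as well, at 7.98 and 8.80 TPM in KO and 5.10 and 5.39 TPM in WT. The part of these shifts in the results on stress genes was not tested beyond the rescaling without the granulocyte list. Of 10 plasma and B cell markers 8 were under 1 TPM in every library, with Ms4a1 and Pou2af1 listed at 0 throughout. Above 1 TPM were Cd79b, which rose (4.37 and 4.58 TPM in KO, 2.60 and 2.49 TPM in WT, limma adjusted p = 0.00643), and Tnfrsf13b, which was not called (26.6 and 28.2 TPM in KO, 24.3 and 18.5 TPM in WT).

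**Figure D2:**
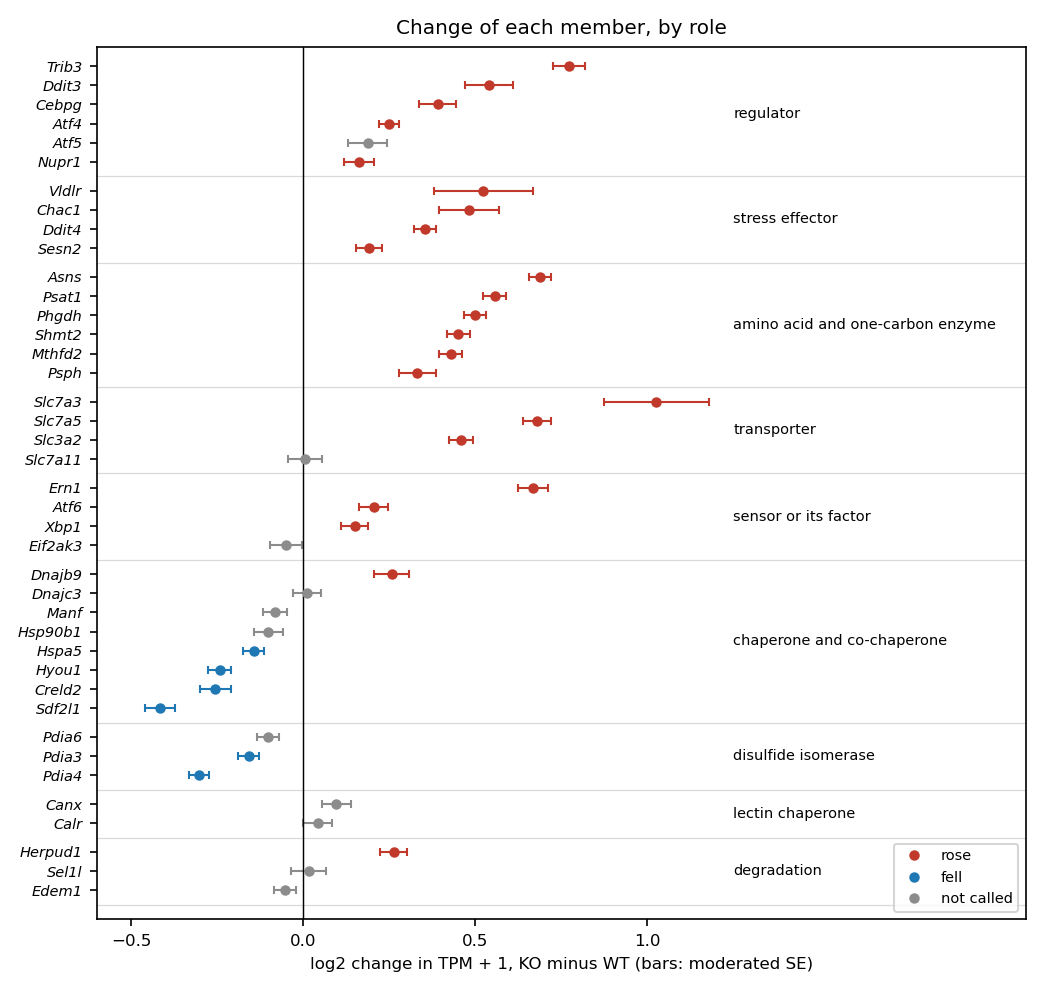
Change of each of the 40 genes in log2(TPM + 1), KO minus WT, ordered by size within roles, with bars for the moderated SE. Red marks the 23 genes that rose, blue the 6 that fell and grey the 11 that did not pass the test, and the blue points all lie among the chaperones and disulfide isomerases.

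Of the 6 regulators in the amino acid arm 5 rose, with a median change of 0.32. Among all genes tested 18.9% rose and 11.6% fell, and each role holds only a few genes. Atf4 itself (chr15:80255184-80257541 on mm10, plus strand) was listed at 446 and 445 TPM in KO against 373 and 377 TPM in WT. The replicates lay close together and the groups did not overlap, and the change was 0.25 (SE 0.029, limma adjusted p = 0.00348). This is the level of the mRNA, and ATF4 is controlled largely at translation, which was not measured here. Ddit3, which encodes the stress factor CHOP, was at 50.5 and 50.1 TPM in KO and 36.7 and 31.97 TPM in WT. It changed by 0.54 (SE 0.070, limma adjusted p = 0.00474), and its WT libraries lay further apart than its KO libraries. Cebpg, for a C/EBP family partner of ATF4, was at 38.1 and 36.8 TPM in KO against 27.2 and 29.4 TPM in WT, a change of 0.39 (limma adjusted p = 0.00561). Nupr1, for a small stress-induced chromatin protein, was at 87.6 and 85.3 TPM in KO against 79.4 and 75.1 TPM in WT and rose by the least of these, 0.16 (limma adjusted p = 0.04). Atf5, for the factor closest to ATF4, was at 38.03 and 38.7 TPM in KO and 35.2 and 32.03 TPM in WT and did not pass the test (change 0.19, limma adjusted p = 0.0551). Its groups did not overlap, and it passed with the filter at 5 TPM (0.043), with robust variances (0.039) and without WT replicate 1 (change 0.25, 0.035), while without WT replicate 2 the change was 0.12 (0.13).

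Trib3, for a pseudokinase that ATF4 and CHOP induce and that damps both, rose the most of the regulators. Its level was 53.8 and 57.3 TPM in KO against 31.9 and 32.3 TPM in WT. Both KO libraries were above both WT libraries by a margin larger than the spread within either group, and the change was 0.77 (SE 0.046, limma adjusted p = 0.000477). For each TPM of Atf4 there were 0.121 and 0.129 TPM of Trib3 in KO, against 0.0856 and 0.0857 TPM in WT. Without KO replicate 1 or KO replicate 2 the calls of Atf4, Ddit3, Cebpg and Nupr1 were lost, with limma adjusted p between 0.052 and 0.22, and Nupr1 also lost its call without WT replicate 2 (0.096). Under spike-in scaling Atf4 (0.29) and Nupr1 (0.75) lost theirs, and that of Nupr1 also went under the other scalings and without the filter or the variance trend (0.069 to 0.13). Trib3 kept its call under every alternative.

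The core of the element that ATF4 binds with a C/EBP partner, TGATGNAA, was searched on both strands of the 300 bases from 250 before to 50 after each start in RefSeq's promoter table (GRCm38.p6). It occurred in the promoters of 4.51% of the 27025 genes listed there. Of the 18 amino acid genes matched there 6 held it, which were Nupr1, Trib3, Chac1, Vldlr, Asns and Slc7a11, and of 17 matched endoplasmic reticulum genes 1 did, Herpud1. Vldlr, Chac1, Asns, Trib3 and Herpud1 rose by between 0.26 and 0.77, Nupr1 rose by 0.16, and Slc7a11, whose promoter holds 2 matches, changed by 0.005 and was not called. A match is a description of the letters, not a sign of binding. The 3 promoters of the amino acid arm with a match and the smallest p are printed from 250 bases before to 30 after the start, on the strand of the gene, with the match in capitals. They lie at chr2:152344031-152344310 (minus strand), chr6:7693180-7693459 (minus strand) and chr2:119350992-119351271 (plus strand).
Trib3: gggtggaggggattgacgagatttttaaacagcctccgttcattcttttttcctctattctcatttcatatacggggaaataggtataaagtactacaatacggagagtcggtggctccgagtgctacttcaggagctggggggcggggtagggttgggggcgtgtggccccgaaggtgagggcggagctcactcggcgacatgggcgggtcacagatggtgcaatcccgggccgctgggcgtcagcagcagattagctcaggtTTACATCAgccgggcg
Asns: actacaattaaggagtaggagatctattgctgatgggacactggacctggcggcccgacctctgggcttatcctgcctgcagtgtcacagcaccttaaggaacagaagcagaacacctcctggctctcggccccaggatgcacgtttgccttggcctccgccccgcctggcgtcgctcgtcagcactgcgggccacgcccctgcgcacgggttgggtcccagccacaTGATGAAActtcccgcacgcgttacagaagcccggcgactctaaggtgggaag
Chac1: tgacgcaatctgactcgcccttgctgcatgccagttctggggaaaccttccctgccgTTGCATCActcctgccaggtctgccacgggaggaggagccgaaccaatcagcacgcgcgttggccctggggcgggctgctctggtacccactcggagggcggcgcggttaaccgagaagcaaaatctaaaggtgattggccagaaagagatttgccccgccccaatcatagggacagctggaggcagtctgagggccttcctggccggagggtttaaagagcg
Counted from the start in the promoter table, the match in the Trib3 promoter lies at 15 to 22 on the opposite strand. In Asns it lies at -23 to -16 on the strand of the gene, and in Chac1 at -193 to -186 on the opposite strand. GENCODE places the start of Trib3 at 152344032, and by that start its match, at 152344039-152344046, lies upstream.

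All 4 stress effectors rose, against 18.9% of all genes tested, with a median change of 0.42. Chac1, whose product breaks down glutathione, was at 19.9 and 23.8 TPM in KO and 15.5 and 15.1 TPM in WT. The KO libraries differed from each other by more than the WT ones but were both higher, and the change was 0.48 (SE 0.088, limma adjusted p = 0.0134). Ddit4, for the mTORC1 inhibitor REDD1, was at 205 and 209 TPM in KO and 162 and 162 TPM in WT, with nearly equal replicates, and changed by 0.35 (limma adjusted p = 0.00162). Sesn2, for a leucine sensor that also restrains mTORC1, was at 62.1 and 62.3 TPM in KO and 55.3 and 53.5 TPM in WT, a change of 0.19 (limma adjusted p = 0.0172). Both brakes on mTORC1 were thus higher in KO. Vldlr, for the very low density lipoprotein receptor, was close to the 1 TPM of the filter, at 1.34 and 1.59 TPM in KO and 0.63 and 0.8 TPM in WT (change 0.52, limma adjusted p = 0.0443). It entered the test only through its KO libraries, as did Slc7a3, and without this pair 16 of the remaining 18 amino acid genes rose. Without KO replicate 1 or 2 the call of Sesn2 was lost (0.12 each), and without any 1 of the 4 libraries that of Vldlr (0.07 to 0.18). Chac1 lost its call without KO replicate 2 (0.057), WT replicate 1 (0.06) or WT replicate 2 (0.059), and spike-in scaling removed the calls of Ddit4 (0.07), Sesn2 (0.56) and Vldlr (0.073). Vldlr also lost its call after rescaling without the granulocyte list (0.053) and with a pseudocount of 0.1 (0.054).

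All 6 enzymes of amino acid and one-carbon synthesis rose, against 18.9% of all genes tested, with a median change of 0.47. Asns (chr6:7675169-7693254 on mm10, minus strand), which makes asparagine from aspartate and glutamine, was at 211 and 208 TPM in KO against 130.5 and 129 TPM in WT. Replicates of either group lay close together, and it changed by 0.69 (SE 0.032, limma adjusted p = 0.000228), the smallest p of the 40 genes. There were 0.473 and 0.467 TPM of Asns for each TPM of Atf4 in KO, against 0.350 and 0.342 TPM in WT.

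The 3 steps of serine synthesis all rose. Phgdh, for the dehydrogenase of the first step, was at 216 and 218 TPM in KO and 155 and 152 TPM in WT (change 0.50, limma adjusted p = 0.000531). Psat1, for the transaminase of the next, was at 293 and 285 TPM in KO and 194 and 198 TPM in WT (change 0.56, limma adjusted p = 0.000466). At both genes the lowest KO library was far above the highest WT library. Psph, for the phosphatase of the last step, was listed lower, at 31.9 and 34.1 TPM in KO against 25.4 and 26.7 TPM in WT, and changed the least of the 6 (change 0.33, limma adjusted p = 0.00964). Its call was lost without KO replicate 1 (0.052), without KO replicate 2 (0.079) and under spike-in scaling (0.086).

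Serine feeds mitochondrial one-carbon metabolism, and both of its enzymes here rose. Shmt2, for the hydroxymethyltransferase that turns serine into glycine and a one-carbon unit, was at 225 and 230.3 TPM in KO and 164 and 169 TPM in WT (change 0.45, limma adjusted p = 0.000927). Mthfd2, which oxidises that unit, was at 154 and 157 TPM in KO and 114 and 116 TPM in WT (change 0.43, limma adjusted p = 0.000992). Asns, Phgdh, Psat1, Shmt2 and Mthfd2 kept their calls under every alternative.

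Of the 4 transporters 3 rose, against 18.9% of all genes tested. Slc7a5, for the light chain LAT1 that carries large neutral amino acids such as leucine, was at 187 and 195 TPM in KO against 116 and 122 TPM in WT. Its heavy chain Slc3a2, or CD98, was at 199.6 and 206 TPM in KO against 149 and 146 TPM in WT. Both chains were higher in both KO libraries, by 0.68 for Slc7a5 (SE 0.041, limma adjusted p = 0.000479) and 0.46 for Slc3a2 (SE 0.034, limma adjusted p = 0.000919), under every alternative. The ratio of Slc7a5 to Slc3a2 TPM was 0.939 and 0.945 in KO and 0.779 and 0.836 in WT. Slc7a11, for the cystine carrier xCT that pairs with the same heavy chain, was at 21.96 and 21.99 TPM in KO and 21.4 and 22.4 TPM in WT. The groups overlapped, and the change of 0.005 (SE 0.049, limma adjusted p = 0.948) did not pass the test. Slc7a5 was at 8.54 and 8.86 times the TPM of Slc7a11 in KO and at 5.42 and 5.45 times in WT. Slc7a3, for the cationic amino acid carrier CAT3, was barely detected at 2.65 and 2.15 TPM in KO and 0.8 and 0.54 TPM in WT, and its change of 1.03 (SE 0.152, limma adjusted p = 0.00707) lost its call without KO replicate 1 (0.065).

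Among the sensors of the endoplasmic reticulum and the factor downstream, 3 of 4 rose, against 18.9% of all genes tested. Ern1 (chr11:106394650-106487852 on mm10, minus strand), for the sensor IRE1 alpha, was at 51.2 and 50.2 TPM in KO against 32.3 and 30.9 TPM in WT. No KO library came near a WT one, and the change of 0.67 (SE 0.043, limma adjusted p = 0.000581), which held under every alternative, was the highest in the endoplasmic reticulum arm. Eif2ak3, for PERK, the sensor that phosphorylates eIF2, was at 19.7 and 20.01 TPM in KO and 20.8 and 20.3 TPM in WT and did not pass the test (change -0.05, limma adjusted p = 0.456). The ratio of Ern1 to Eif2ak3 TPM was 2.61 and 2.51 in KO against 1.55 and 1.52 in WT. Atf6 was at 32.1 and 31.6 TPM in KO and 27.3 and 27.7 TPM in WT (change 0.20, limma adjusted p = 0.0189). Xbp1, whose mRNA IRE1 splices, was at 583 and 562 TPM in KO and 504 and 528 TPM in WT (change 0.15, limma adjusted p = 0.0375), and a gene-level value does not separate the spliced form. Atf6 lost its call without KO replicate 1, KO replicate 2 or WT replicate 1 (0.066 to 0.13) and under spike-in scaling (0.44). Xbp1 did so without the same libraries, without the filter, without a variance trend and under all 3 scalings (0.08 to 0.8).

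Of the 8 chaperones and their partners 4 fell, 1 rose and 3 were not called, with a median change of -0.12. Among all genes tested 11.6% fell and 18.9% rose. Hspa5 (chr2:34771970-34777547 on mm10, plus strand), for BiP, the Hsp70 of the lumen and the usual readout of folding stress, was at 651 and 633 TPM in KO against 708 and 712 TPM in WT. Both KO libraries were below both WT libraries, and it fell by 0.15 (SE 0.031, limma adjusted p = 0.022). Hyou1, for the nucleotide exchange factor of BiP, was at 148 and 147 TPM in KO and 177 and 172 TPM in WT and fell by 0.24 (limma adjusted p = 0.00525). Sdf2l1, for a lumen protein that works with BiP and its J-domain partners, was at 159.8 and 167 TPM in KO against 225 and 213 TPM in WT. It fell by 0.42 (SE 0.044, limma adjusted p = 0.00251), the strongest fall of the 40 genes. Sdf2l1 stood at 0.245 and 0.265 of the TPM of Hspa5 in KO and at 0.318 and 0.299 in WT. Creld2, for a secreted protein with disulfide isomerase activity, was at 56.2 and 53.9 TPM in KO and 67.4 and 64.5 TPM in WT and fell by 0.26 (limma adjusted p = 0.0109).

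Of the 2 J-domain partners of BiP here 1 rose. Dnajb9, or ERdj4, was at 46.6 and 47.7 TPM in KO and 37.8 and 40.8 TPM in WT and rose by 0.26 (limma adjusted p = 0.0168). Dnajc3, or p58IPK, which also inhibits eIF2 kinases, was at 47.8 and 46.7 TPM in KO and 45.98 and 47.8 TPM in WT (change 0.01, limma adjusted p = 0.873), and its groups overlapped. Hsp90b1, for the lumen's Hsp90 GRP94, was at 783 and 733 TPM in KO against 823 and 804 TPM in WT (change -0.10, limma adjusted p = 0.123). Manf, for a secreted stress factor, was at 134 and 131 TPM in KO and 138 and 143 TPM in WT (change -0.08, limma adjusted p = 0.135). Both were lower in both KO libraries without passing the test. The change of Hsp90b1 was -0.15 without KO replicate 1 and -0.05 without KO replicate 2. Manf passed under trimmed-mean scaling (0.038), and both passed after rescaling without the granulocyte list (Manf 0.042, Hsp90b1 0.045). Among the chaperones that fell, Hspa5, Hyou1 and Creld2 lost their calls without KO replicate 1 or KO replicate 2 (0.066 to 0.18), and so did Dnajb9, which also lost it without WT replicate 1 and under spike-in scaling (0.052 to 0.19). The call of Hspa5 was also lost under spike-in scaling (0.067) and without a variance trend (0.079), while Sdf2l1 kept its call throughout.

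Of the 3 disulfide isomerases 2 fell, against 11.6% of all genes tested. Pdia4, or ERp72, was at 271 and 266 TPM in KO against 331 and 332 TPM in WT. It fell by 0.30 (SE 0.030, limma adjusted p = 0.00217) and kept its call under every alternative. Pdia3, or ERp57, which works on glycoproteins with the lectin chaperones, was at 487 and 478 TPM in KO and 534 and 543 TPM in WT and fell by 0.16 (limma adjusted p = 0.0159), a call lost without KO replicate 1 (0.12), KO replicate 2 (0.15) or the variance trend (0.064). Pdia6, which can attenuate IRE1, was at 326 and 331 TPM in KO and 358 and 348 TPM in WT (change -0.10, limma adjusted p = 0.0629), and passed the test under trimmed-mean scaling (0.034) and without the granulocyte list (0.021). The calreticulin gene Calr, the most abundant of the 40, was at 2107 and 2122 TPM in KO and 1987 and 2125 TPM in WT, and its groups overlapped (change 0.04, limma adjusted p = 0.502). Canx, for its membrane-bound relative calnexin, was at 339.6 and 325 TPM in KO and 303 and 319 TPM in WT (change 0.10, limma adjusted p = 0.142). Neither lectin chaperone passed the test. For each TPM of Calr there were 0.129 and 0.125 TPM of Pdia4 in KO and 0.167 and 0.156 TPM in WT.

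The element through which ATF6 acts with NF-Y, searched on both strands as CCAAT and CCACG with any 9 bases between them, occurred at 0.137% of the 27025 genes. It was found at 7 of the 17 endoplasmic reticulum genes matched in the promoter table, all 7 among the 11 matched folding genes, and at 0 of the 18 matched amino acid genes. The sites are shown because these genes share the element. Each is printed in the orientation of the motif, with its fixed letters in capitals.
Hspa5: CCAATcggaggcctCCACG
Creld2: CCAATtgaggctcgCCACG
Hsp90b1, nearer site: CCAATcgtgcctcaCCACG
Hsp90b1, farther site: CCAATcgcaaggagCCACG
Pdia6: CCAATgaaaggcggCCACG
Dnajc3: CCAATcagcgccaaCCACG
Calr: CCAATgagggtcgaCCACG
Canx: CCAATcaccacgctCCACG
Of these 7 genes Hspa5 and Creld2 fell and the other 5 did not pass the test, with changes between -0.10 for Pdia6 and Hsp90b1 and 0.10 for Canx. Sdf2l1, Pdia4 and Pdia3, which also fell, held no match in this window.

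The promoters of the 2 folding genes that hold the element and fell are printed in the same way, from chr2:34771840-34772119 and chr15:88819396-88819675 (both plus strand, GRCm38.p6), with the element in capitals.
Hspa5: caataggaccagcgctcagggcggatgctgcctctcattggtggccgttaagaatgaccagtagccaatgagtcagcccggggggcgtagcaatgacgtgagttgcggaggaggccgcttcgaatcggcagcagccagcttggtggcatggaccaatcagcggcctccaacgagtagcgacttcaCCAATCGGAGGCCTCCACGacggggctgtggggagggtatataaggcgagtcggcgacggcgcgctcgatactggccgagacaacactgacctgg
Creld2: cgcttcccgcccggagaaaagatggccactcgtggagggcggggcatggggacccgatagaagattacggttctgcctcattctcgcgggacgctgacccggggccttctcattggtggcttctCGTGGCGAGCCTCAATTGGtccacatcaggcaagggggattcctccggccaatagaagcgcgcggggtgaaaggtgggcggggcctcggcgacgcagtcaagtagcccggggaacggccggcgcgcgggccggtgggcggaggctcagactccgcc
The element lies at -65 to -47 from the start in Hspa5 and at -126 to -108 in Creld2, there on the opposite strand.

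Of the 3 genes of endoplasmic reticulum associated degradation, the disposal of misfolded protein by the proteasome, 1 rose, against 18.9% of all genes tested. Herpud1, which organises the ubiquitin ligase complex, was at 78.2 and 81.3 TPM in KO and 65.7 and 67.03 TPM in WT. The groups did not overlap, and the change of 0.26 (SE 0.039, limma adjusted p = 0.00697) lost its call without KO replicate 1 (0.055), without KO replicate 2 (0.075) and under spike-in scaling (0.21). Edem1, which marks glycoproteins for disposal, was at 187 and 191 TPM in KO and 196 and 197 TPM in WT (change -0.05, limma adjusted p = 0.239). Sel1l, for the partner of the ligase HRD1, was at 55.2 and 59.9 TPM in KO and 56.3 and 57.6 TPM in WT (change 0.015, limma adjusted p = 0.845), and its groups overlapped. Herpud1 was the 1 gene of the 35 matched whose promoter held an element of each arm: the core TGATGNAA, and ATTGG and CCACG with any 1 base between them, a further element of ATF6 and XBP1 that occurred at 0.0444% of genes. Its promoter at chr8:94386179-94386458 (plus strand, GRCm38.p6) is printed with both in capitals.
Herpud1: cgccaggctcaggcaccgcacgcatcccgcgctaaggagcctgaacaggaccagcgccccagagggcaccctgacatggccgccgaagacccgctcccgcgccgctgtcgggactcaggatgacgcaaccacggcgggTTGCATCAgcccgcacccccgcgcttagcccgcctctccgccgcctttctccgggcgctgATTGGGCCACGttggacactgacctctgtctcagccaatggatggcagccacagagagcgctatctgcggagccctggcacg
The core lies at -112 to -105 from the start on the opposite strand, and the other element at -52 to -42. A further XBP1 element, TGACGTGG, occurred at 0.714% of genes and in no matched gene of either arm.

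Other genes of both pathways, from lists that hold none of the 40, were counted as well. These lists too were chosen with earlier results of these data known, so their counts are not independent support. Of 30 further ATF4 targets 27 were tested. Of these 18 rose, 3 fell and 6 were not called, while 18.9% of all genes tested rose and 11.6% fell. The median change was 0.24. Cth, for the enzyme that makes cysteine from cystathionine, was at 5.99 and 5.43 TPM in KO against 1.35 and 1.57 TPM in WT (change 1.45, limma adjusted p = 0.000841). Aldh1l2, of mitochondrial folate metabolism, was at 7.84 and 7.81 TPM in KO and 2.97 and 3.03 TPM in WT (change 1.14, limma adjusted p = 0.000616). Gpt2, for mitochondrial alanine transaminase, was at 48.6 and 51.95 TPM in KO and 27.7 and 26.8 TPM in WT (change 0.86, limma adjusted p = 0.000453). Each of these, and Stc2 at 84.9 and 85.6 TPM in KO and 53.5 and 54.5 TPM in WT, had groups that did not overlap. The 3 that fell, named here after their values were seen, were Atf3 (21.2 and 22.4 TPM in KO, 30.2 and 27.3 TPM in WT), Pycr1 (10.1 and 12.4 TPM in KO, 16.99 and 15.1 TPM in WT) and Nrbf2 (21.8 and 23.2 TPM in KO, 30.2 and 28.5 TPM in WT). Without KO replicate 1 the calls of all 3 were lost (0.07 to 0.11), without KO replicate 2 that of Atf3 (0.065), and without WT replicate 1 (0.11) or WT replicate 2 (0.05) that of Pycr1. Pycr1 also lost its call without the filter (limma adjusted p = 0.073) and without a variance trend (0.05). Under spike-in scaling 9 of the 27 rose, against 634 of all 11819 genes tested there. Calls among the 27 were also lost without KO replicate 1 or KO replicate 2, where the median change was 0.251 and 0.254.

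Of the tRNA synthetases, which charge tRNA with amino acids, a list of 12 known as ATF4 targets was counted, and the other synthetases were not. The symbol Mars1 was not matched. The remaining 11 were tested and all rose, against 18.9% of all genes tested. Their changes lay between 0.17 and 0.48, with a median of 0.34. Iars, for the isoleucine enzyme, was at 118 and 117 TPM in KO and 82.2 and 86.1 TPM in WT (change 0.48, limma adjusted p = 0.00113). Gars was at 215 and 213 TPM in KO and 166 and 164 TPM in WT (change 0.37, limma adjusted p = 0.00122). Lars, for leucine, was at 96.04 and 97.8 TPM in KO and 73.2 and 71.7 TPM in WT (change 0.42, limma adjusted p = 0.00141). KO stood above WT without overlap at all 11, against 42.2% of all genes tested. Under spike-in scaling 2 of the 11 rose, against 634 of all 11819 genes tested there. Calls among the 11 were also lost without KO replicate 1 or KO replicate 2, where the median change was 0.341 and 0.332. The ATF4 core was found in 5 of the 8 synthetase promoters matched, those of Aars, Gars, Iars, Tars and Yars. Among the other ATF4 targets it was found at 6 of the 23 matched, which were Got1, Slc1a4, Fgf21 and Jdp2, and Atf3 and Pycr1, which fell.

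Of 50 further folding and degradation genes tested 8 rose, 3 fell and 39 were not called, and the median change was 0.03, against 18.9% and 11.6% for all genes. Ero1l, for the oxidase that recharges the disulfide isomerases and a known target of CHOP and of hypoxia, was at 1579 and 1575 TPM in KO and 1119.9 and 1193 TPM in WT and rose by 0.45 (limma adjusted p = 0.00163). Dnajb11, or ERdj3, a partner of BiP with Sdf2l1, was at 49.96 and 51.2 TPM in KO and 71.5 and 67.9 TPM in WT and fell by 0.46 (limma adjusted p = 0.00185). Ssr3, of the translocon, and Txndc5, of the isomerase family, rose by 0.28 and 0.23 (limma adjusted p = 0.00471 and 0.00672). The split of these calls turned with the scaling: 6 rose and 6 fell under trimmed-mean scaling, 1 and 1 under spike-in scaling, and 5 and 6 after rescaling without the granulocyte list. The calls of Ssr3 and Txndc5 were lost under spike-in scaling (0.16 and 0.33) and without KO replicate 1 or KO replicate 2 (0.056 to 0.079). Without KO replicate 1 or KO replicate 2, 1 rose and 1 fell, and without WT replicate 1, 3 rose and 1 fell.

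**Figure D3:**
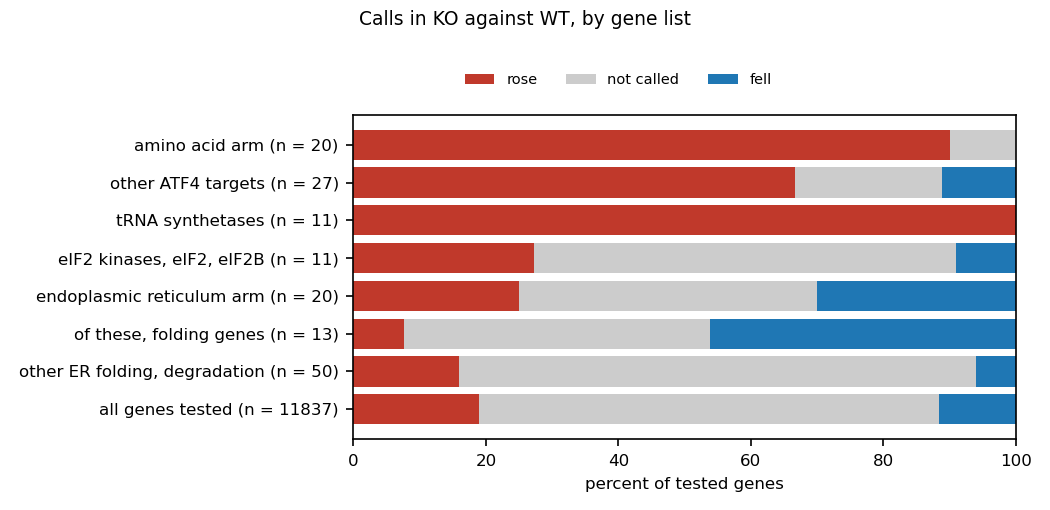
Share of the tested genes of each list that rose (red), did not pass the test (grey) or fell (blue) in KO against WT, in percent, with all 11837 genes tested as the last bar. The amino acid arm, the other ATF4 targets and the tRNA synthetases are mostly red, with 18 of 20, 18 of 27 and 11 of 11 genes, and the folding genes have the longest blue stretch, 6 of 13.

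The 4 kinases that phosphorylate eIF2 were compared at the level of their mRNA. Eif2ak4, for the amino acid sensor GCN2, was at 24.0 and 24.3 TPM in KO and 19.4 and 19.2 TPM in WT and rose by 0.31 (SE 0.045, limma adjusted p = 0.00676). Eif2ak1, for the heme-regulated HRI, was at 35.8 and 36.2 TPM in KO and 40.7 and 42.3 TPM in WT and fell by 0.20 (SE 0.042, limma adjusted p = 0.0211). The interferon-induced PKR gene Eif2ak2, at 34.4 and 35.8 TPM in KO and 32.3 and 33.6 TPM in WT, did not pass (change 0.09, limma adjusted p = 0.199), nor did Eif2ak3 above. Of the 11 genes for these kinases other than Eif2ak3, for eIF2 and for its exchange factor eIF2B, 3 rose, 1 fell and 7 were not called, and the median was -0.01. These shares lie near those of all genes tested, 18.9% and 11.6%. The calls of Eif2ak4 and Eif2ak1 were lost without KO replicate 1 or KO replicate 2 (0.064 to 0.14), that of Eif2ak4 also under spike-in scaling (0.13), and that of Eif2ak1 also without WT replicate 2 (0.064). These values are mRNA levels and say nothing of the phosphorylation of eIF2.

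**Figure D4:**
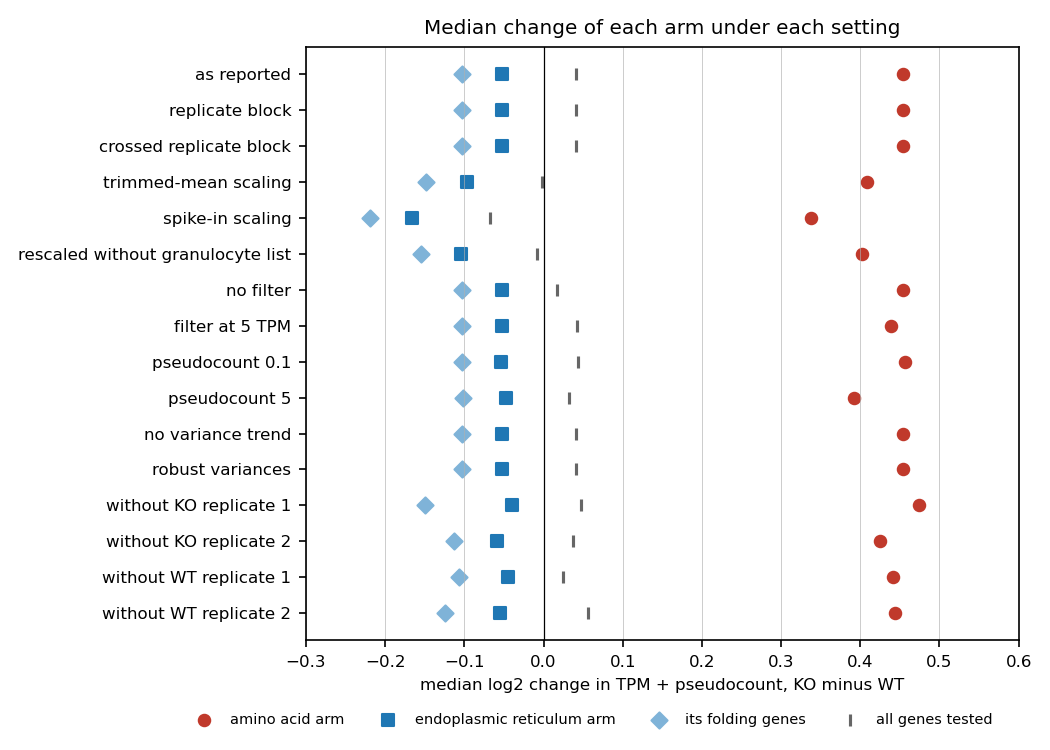
Median change of the amino acid arm (red circles), the endoplasmic reticulum arm (blue squares), its folding genes (light blue diamonds) and all genes tested (grey ticks), in log2(TPM + pseudocount), KO minus WT, as reported and under each alternative setting. The circles lie between 0.34 and 0.47 and the diamonds between -0.22 and -0.10, with the lowest of both under spike-in scaling.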

How the data were processed

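RNA-seq libraries of mouse leukemia cells, 2 labelled KO and 2 labelled WT, were made with a KAPA stranded mRNA kit from QIAzol lysates, per the labels' protocols. The authors deposited 1 table whose unit was read from its values: each column sums to 1000000, and it was used as TPM. The submitters' processing notes name STAR, RSEM and mm10. For tool versions, annotation and strand handling nothing was given in the sources used here, so reads of overlapping or antisense genes may be shared. Read depth cannot be recovered from TPM, so each library's reads are unknown and no counting error can be given. Between 11630 and 11731 genes per library reached 1 TPM. The 92 ERCC spike-in entries were not tested as genes and served only to scale the libraries in 1 alternative.

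The filter asked for 1 TPM or more in 2 or more libraries, which 11837 genes met. On the log2 scale of the deposited TPM plus a pseudocount of 1, limma (3.58.1, under R 4.3.3) was fitted with a variance trend and no replicate block. P-values are two-sided and adjusted by the Benjamini-Hochberg method over all genes tested, with calls under 0.05. All adjusted p come from limma fits, and those given for an alternative from its own fit. Residual degrees of freedom were 2 and prior ones 3.51. With 2 libraries against 2, the smallest p of an exact permutation test, two-sided, is 0.333. The pseudocount understates the change of low genes. The code was tested on simulated data. The 40 genes and all lists were chosen with earlier results of these data known. The text names all 40, Tet2 and at most 4 genes of each other list, by the smallest p of those called, with the eIF2 kinases in full and other exceptions named as such. Alternatives covered scaling (trimmed mean of log ratios, spike-ins, an equal total without the granulocyte list), pseudocount (0.1 and 5), filter (none and 5 TPM), variance model, replicate number as a block, and each library left out. Gene positions are those of GENCODE mouse release 21. Promoters came from RefSeq's table, in which 35 of the 40 symbols were matched. Slc7a3, Slc7a5, Atf6, Hyou1 and Manf were not. Of the 38 promoters listed for the matched genes, 28 start at the annotated beginning of the gene. Positions of matches are counted from the start of the promoter entry, which can differ from the gene positions given.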

Additional observations from a re-analysis of the deposited data

How the results depend on the processing

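No gene of the 40 that was called changed direction under any of 14 alternatives, or of 13 for Vldlr and Slc7a3, which did not pass the filter at 5 TPM, and 11 of the 29 called genes kept their call under every one: Trib3, Asns, Phgdh, Psat1, Shmt2, Mthfd2, Slc7a5, Slc3a2, Ern1, Sdf2l1 and Pdia4. Over all genes tested 634 rose under spike-in scaling, against 2237 as reported, and with each library left out in turn 500 to 1910 rose and 515 to 995 fell. In the amino acid arm 10 to 17 genes rose with a library left out. In the endoplasmic reticulum arm 1 rose under spike-in scaling, and with a library left out 1 to 5 rose and 2 to 6 fell. The lowest of these counts came without KO replicate 1 or KO replicate 2. Any fit with a library left out has a group of 1 library, which is assumed to vary like the other group. Without a KO library that other group was WT, and without a WT library it was KO. The gap between the arms' medians, 0.506 as reported, was 0.440 with a pseudocount of 5, and 0.484 to 0.514 with a library left out. Uncalled genes near 0 changed sign. Under trimmed-mean scaling, spike-in scaling and rescaling without the granulocyte list Slc7a11 was at -0.039, -0.106 and -0.045, Dnajc3 at -0.035, -0.104 and -0.041, Calr at -0.005, -0.075 and -0.012, and Sel1l at -0.030, -0.099 and -0.037; Canx was at -0.021 under spike-in scaling. With a library left out Slc7a11 ranged between -0.027 and 0.037, Dnajc3 between -0.018 and 0.038, Calr between -0.008 and 0.089, and Sel1l between -0.042 and 0.073. The cause of these shifts was not tested.

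The replicate numbers are shared by both groups, but the difference of replicate 1 and replicate 2 had a correlation of -0.114 between KO and WT over 11837 genes, so the samples share only a number. With the replicate block 1888 genes rose and 1183 fell, among them 17 amino acid genes that rose, and 4 endoplasmic reticulum genes that rose and 5 that fell. Among the 40 genes, the calls lost with the block were those of Vldlr (0.065), Xbp1 (0.073) and Hspa5 (0.053). With the numbers crossed, an alternative chosen after seeing the data, 2136 rose and 1327 fell, with 17 amino acid genes that rose.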

Other observations

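The genes of the translocon, which threads new proteins into the endoplasmic reticulum, and of signal peptidase were mostly not called. This group of 13 was drawn after its values were seen, so it has no test of its own: 3 rose and 10 did not pass, with a median change of 0.09, against 18.9% of all genes tested that rose. Ssr3 was at 457 and 447 TPM in KO and 362 and 379.6 TPM in WT, Ssr4 at 307 and 316 TPM in KO and 264 and 283 TPM in WT, and Spcs3, of signal peptidase, at 164 and 162 TPM in KO and 146 and 151 TPM in WT. All 3 calls were lost under spike-in scaling (0.16 to 0.87) and without KO replicate 1 or KO replicate 2 (0.056 to 0.2), and those of Ssr4 and Spcs3 also without WT replicate 1 and after rescaling without the granulocyte list (0.058 to 0.13). Ssr4 lost its call without the filter (limma adjusted p = 0.06) and without a variance trend (0.075) too. Spcs3 did so without a variance trend (0.095), under trimmed-mean scaling (0.083) and with the replicate block (0.064). KO stood above WT without overlap at 9 of the 13 genes, against 42.2% of all genes tested.

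The initiation factor eIF2 is the substrate of the stress kinases. Its subunit gene Eif2s2 was at 231 and 217 TPM in KO and 167 and 189.7 TPM in WT (change 0.33, limma adjusted p = 0.019), and Eif2s3x at 175 and 174 TPM in KO and 146 and 151 TPM in WT (change 0.23, limma adjusted p = 0.00633). Both calls were lost under spike-in scaling (0.077 and 0.32) and without KO replicate 1 or KO replicate 2 (0.074 to 0.14), and that of Eif2s2 also without the filter (0.059) or the variance trend (0.054). Of the mast cell and basophil markers, 4 of 7 tested fell and 1 rose, against 11.6% and 18.9% of all genes tested. Hdc, Tpsb2, Cma1 and Ms4a2 fell, with changes between -1.634 and -1.083. The listed markers summed to 2145 and 2079 TPM in KO and 1963 and 2040 TPM in WT. Most of each sum was Cpa3, named here after its values were seen. It rose, at 1667 and 1606 TPM in KO and 1302.5 and 1366 TPM in WT.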
